A study of Mus musculus with 11 samples.

Results

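Arg1, Arg2, Nos2 and Ass1 are the genes through which macrophages, neutrophils and other myeloid cells break down or remake arginine. These 4 genes were chosen by name, as every probe annotated to them, at a time when earlier results of these arrays were already known. They were read by 5 probes, 2 for Arg1 and 1 for each of the others, among 16252 named probes of 10623 genes. The arrays measured whole fibrosarcomas of the MCA 205 line grown under the skin of C57BL/6 mice aged 10 to 12 weeks. The source names number the tumours from MCA 205 to MCA 215, 1 number per sample; this was read as a copying slip, and a difference between lines, if real, would be part of every comparison. The hosts were either FPR1-/- (KO) or wild type (WT). The labels assign that genotype to the mouse and do not say that the tumour cells lacked FPR1, so a KO tumour is read here as a tumour in a KO host. When a tumour covered 25 to 45 mm2 it was injected with doxorubicin (DX, an anthracycline) at 2.9 mg/kg in 50 µL of saline, or with the saline alone (PBS), and was taken 2 days later. The groups held 2 KO DX, 3 KO PBS, 3 WT DX and 3 WT PBS tumours. No probe named Fpr1 was among those annotated, so the deleted gene itself was not checked here. The labels do not say whether replicates came from separate animals, and the p-values given for other genes measure only the spread between these arrays.

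Arginase splits arginine into urea and ornithine. Arg1 encodes the cytosolic form, abundant in liver and in mouse macrophages activated by IL-4, and Arg2 encodes the mitochondrial form. Nos2 encodes inducible nitric oxide synthase, which uses the same arginine to make nitric oxide and citrulline. Ass1 encodes argininosuccinate synthetase, which with argininosuccinate lyase rebuilds arginine from that citrulline. In tumours, myeloid arginase is known for removing arginine that T cells need.

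All values below are normalized log2 intensities, in which 1 unit is a doubling, and a probe was called detected on an array where its detection p-value lay under 0.05. The arrays were of similar quality apart from the pair on BeadChip 2. Detected probes made up 35.7% to 40.2% of the 45281 probes. Median unprocessed intensities were 118 on KO PBS 2 and 110 on WT PBS 1, the arrays of BeadChip 2, and ran from 151 to 169 on the other arrays. No BeadChip held both KO DX and KO PBS, or both KO DX and WT DX, so those comparisons have no within-chip value. KO DX 1 and KO DX 2 shared BeadChip 4. Arrays of a group correlated at 0.972 or more over genes. The Y-linked gene Eif2s3y was detected on WT DX 2 and WT PBS 3 and on no other array. The number of arrays limits the precision of every difference.

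Arg2 was lowest in WT PBS tumours, and every array of the other groups lay above all 3 of them. Its probe read 7.56 and 7.11 in KO DX tumours and 6.29, 7.17 and 6.55 in KO PBS tumours. It read 6.54, 6.52 and 6.98 in WT DX tumours, against 4.87, 5.50 and 5.16 in WT PBS tumours. The 3 WT PBS values lay near the floor of the measurement, since the probe was detected on 1 of those 3 arrays (WT PBS 2) and on every array of the other groups. The unprocessed intensities were 315 and 315 in KO DX, 179 to 241 in KO PBS, 223 to 240 in WT DX and 109 to 196 in WT PBS tumours. Group means were 7.34 ± 0.32 in KO DX (SD, n = 2), 6.67 ± 0.45 in KO PBS, 6.68 ± 0.26 in WT DX and 5.18 ± 0.31 in WT PBS tumours (SD, n = 3 each). From low to high the order was WT PBS, KO PBS, WT DX and KO DX. KO PBS and WT DX overlapped, as did KO DX and KO PBS.

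Arg2 was 1.50 log2 units higher in DX than in PBS tumours of WT hosts (SE 0.25). No fold is given, since the probe was detected on only 1 of the 3 WT PBS arrays. Between PBS tumours it was also 1.50 units higher in KO than in WT hosts (SE 0.25). Both differences were taken against the same 3 WT PBS arrays and are therefore not separate observations. In KO hosts the difference between DX and PBS tumours was 0.66 (SE 0.28), and KO PBS 2, at 7.17, lay above KO DX 2, at 7.11. Subtracting the WT response to DX from the KO response gave -0.84 (SE 0.37). In DX tumours the KO values lay above all 3 WT values, with a difference of 0.66 (SE 0.28).

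The size of the Arg2 differences varied between settings. Without background correction the DX difference in WT hosts was 0.50 and the KO difference in PBS tumours was 0.51. In the authors' deposited table the DX difference was 0.73 in WT hosts and 0.094 in KO hosts, and the KO difference in PBS tumours was 0.64. With the BeadChip as a block the DX difference was -0.0038 in KO hosts and 2.06 in WT hosts. The same block gave -0.23 for KO against WT in DX tumours, so this difference did not keep its direction. Under the block every KO DX value rests on WT PBS 2, the only other array on BeadChip 4. The block left 3 residual degrees of freedom. On BeadChip 5, WT DX 3 exceeded WT PBS 3 by 1.82. KO PBS exceeded WT PBS by 2.30 on BeadChip 2 and by 1.39 on BeadChip 5.

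Arg1 was bright on every array, and its lowest values also lay in WT PBS tumours. Its brighter probe read 13.22 and 12.50 in KO DX tumours and 12.49, 12.56 and 12.56 in KO PBS tumours. It read 12.42, 12.43 and 13.35 in WT DX tumours, against 12.37, 11.88 and 11.41 in WT PBS tumours. Thus 1 array of each DX group stood well above its partners, and WT PBS 1, at 12.37, came close to the lowest WT DX array. Means were 12.86 ± 0.51 in KO DX (SD, n = 2), 12.54 ± 0.04 in KO PBS, 12.74 ± 0.54 in WT DX and 11.89 ± 0.48 in WT PBS tumours (SD, n = 3 each). From low to high the order was WT PBS, KO PBS, WT DX and KO DX, and the upper 3 groups overlapped one another.

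The second Arg1 probe gave the same picture at a lower brightness. It read 11.91 and 11.04 in KO DX tumours and 11.15, 11.30 and 11.04 in KO PBS tumours. It read 11.06, 10.95 and 12.23 in WT DX tumours, against 10.91, 10.04 and 9.81 in WT PBS tumours. Across the 11 arrays the 2 probes correlated at 0.986, and both read the same RNA samples.

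In WT hosts Arg1 was 0.85 higher in DX than in PBS tumours (SE 0.30), and 1.16 higher on the second probe (SE 0.37, from a fit over all kept probes). In KO hosts the DX difference was 0.32 (SE 0.33), with overlapping groups. Without KO DX 1, the array at 13.22, the KO difference was -0.04. The KO response minus the WT response was -0.53 (SE 0.45). In PBS tumours KO exceeded WT by 0.65 (SE 0.30) without overlap, and in DX tumours by 0.12 (SE 0.33) with overlap.

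Arg1 differences also moved with the BeadChip. With the BeadChip as a block, Arg1 was 1.34 higher with DX in WT hosts and 0.36 lower in KO than in WT DX tumours. The authors' deposited table gave 1.32 and -0.35 for the same comparisons. Whether that table already held a BeadChip adjustment was not tested, so it is not a separate check on the block. On BeadChip 5, WT DX 3 exceeded WT PBS 3 by 1.95. KO PBS exceeded WT PBS by 0.19 on BeadChip 2 and by 1.15 on BeadChip 5. Leaving out WT DX 3 brought the DX difference in WT hosts to 0.54.

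**Figure D1:**
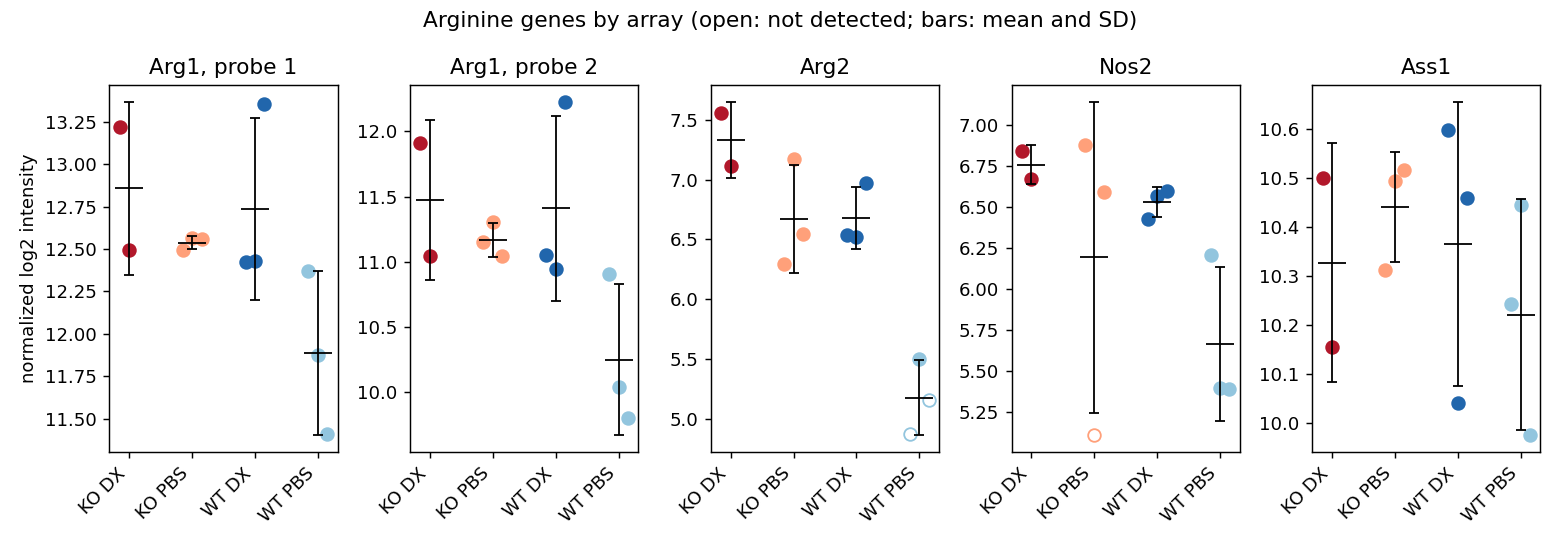
Normalized log2 intensity (vertical axes, each with its own range) of both Arg1 probes and of the Arg2, Nos2 and Ass1 probes on the 11 arrays, with the mean and SD of each group. Open points mark arrays where the probe was not detected. For Arg2 the 3 WT PBS arrays, at 4.87 to 5.50, lie below every other array.

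Nos2 was dim throughout and separated the WT groups but not the KO groups. The probe read 6.84 and 6.67 in KO DX tumours and 6.88, 5.11 and 6.59 in KO PBS tumours. It read 6.43, 6.57 and 6.60 in WT DX tumours, against 6.21, 5.40 and 5.39 in WT PBS tumours. KO PBS 2, on the dim BeadChip 2, had the lowest value and was the only array on which Nos2 was not detected. Means were 6.76 ± 0.12 in KO DX (SD, n = 2), 6.19 ± 0.95 in KO PBS, 6.53 ± 0.09 in WT DX and 5.67 ± 0.47 in WT PBS tumours (SD, n = 3 each). From low to high the order was WT PBS, KO PBS, WT DX and KO DX, and KO PBS overlapped each of the other groups.

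The DX difference of Nos2 was 0.86 in WT hosts (SE 0.38), without overlap, and 0.56 in KO hosts (SE 0.43), with overlap. The KO response minus the WT response was -0.30 (SE 0.58). KO exceeded WT by 0.53 in PBS tumours (SE 0.38), with overlap, and by 0.23 in DX tumours (SE 0.43), where both KO arrays lay above the 3 WT arrays. The direction between KO and WT differed by BeadChip in PBS tumours. It was -1.10 on BeadChip 2 and 1.20 on BeadChip 5. Without KO PBS 2 alone, the DX difference in KO hosts was 0.02 and the KO difference in PBS tumours was 1.07. With BeadChip 2 left out, the DX difference in WT hosts was 1.14 and the KO difference in PBS tumours was 1.34. With the BeadChip as a block the DX difference was 1.17 in KO hosts and 0.29 in WT hosts, which turned the difference of the responses to 0.88. The authors' deposited table gave 0.38 in KO hosts and 0.093 in WT hosts.

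Ass1 overlapped between every pair of groups. Its probe read 10.50 and 10.15 in KO DX tumours and 10.31, 10.49 and 10.52 in KO PBS tumours. It read 10.60, 10.04 and 10.46 in WT DX tumours, against 10.24, 10.45 and 9.97 in WT PBS tumours. The highest and the lowest array were both from WT hosts, and the means lay between 10.44 ± 0.11 in KO PBS and 10.22 ± 0.24 in WT PBS tumours (SD, n = 3 each). DX minus PBS was -0.11 in KO hosts (SE 0.20) and 0.14 in WT hosts (SE 0.18). KO minus WT was 0.22 in PBS tumours (SE 0.18) and -0.04 in DX tumours (SE 0.20). With the BeadChip as a block these values became -0.48 for DX in KO hosts, 0.50 for DX in WT hosts and -0.62 for KO against WT in DX tumours.

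**Figure D2:**
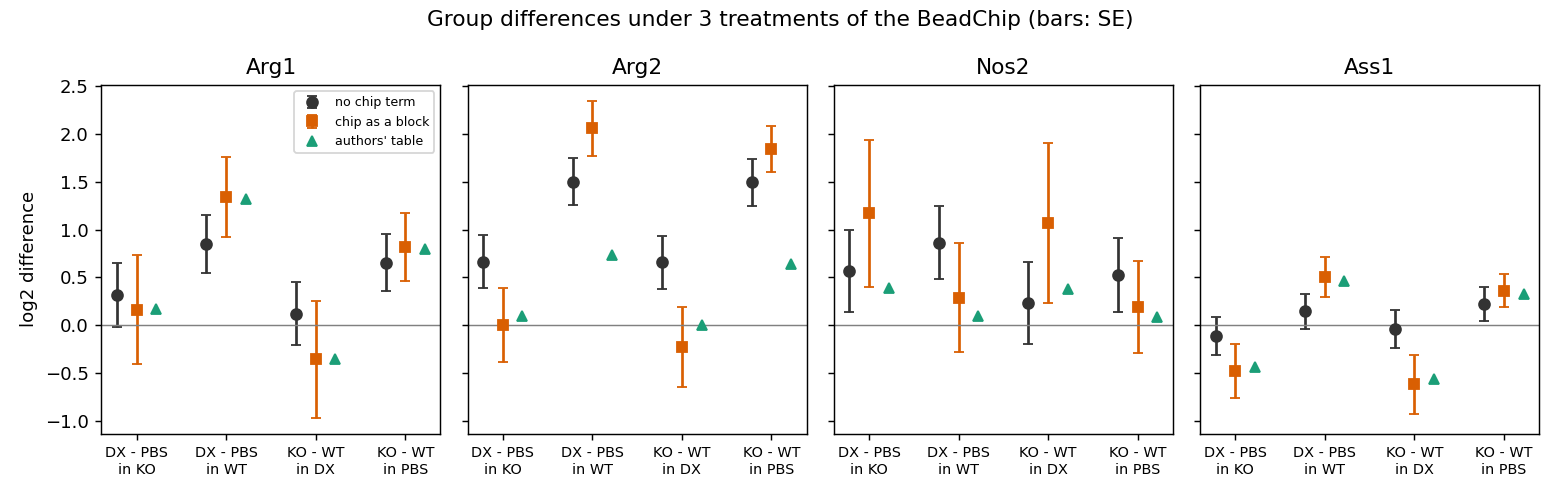
Log2 difference (vertical axis) for 4 group comparisons of Arg1, Arg2, Nos2 and Ass1, from intensities without a chip term, from intensities with the BeadChip as a block, and from the authors' deposited table; bars are SE and the authors' values carry none. The Arg2 difference in WT hosts is above 0 in all 3 (1.50, 2.06 and 0.73), whereas KO against WT in DX tumours is 0.66, -0.23 and -0.0020. Whether the authors' table already held a BeadChip adjustment was not tested, so it is not a separate check on the block.

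The counts over all genes give the background for these values. In limma with Benjamini-Hochberg adjustment, 66 of 10623 genes (0.621%) passed the threshold of 0.05 between DX and PBS in WT hosts, and Arg2 was the only one of the 4 arginine genes among them. That count describes this fit and is not a test of Arg2, which lay outside it when WT DX 1, WT DX 3, WT PBS 1, WT PBS 3 or KO PBS 3 was left out, with differences of 1.35 to 1.57. Arg2 also did not pass without background correction (0.50) or with median scaling (1.39). The same held without the Eif2s3y arrays (1.57) and in a fit of only the groups compared (1.50). In KO hosts 0 genes (0%) passed, as did 0 (0%) for the difference of the responses and 0 (0%) for KO against WT in DX tumours. For KO against WT in PBS tumours 1 gene (0.00941%) passed, which was not an arginine gene. At an unadjusted p under 0.05, limma listed 1245 of the 10623 genes for DX in WT hosts, 569 for DX in KO hosts, 498 for the difference of the responses, 712 for KO against WT in DX tumours and 582 in PBS tumours. Groups did not overlap, with DX higher, for 3 of the 4 arginine genes in WT hosts (6.26% of all genes) and for 0 of the 4 in KO hosts (13.3% of all genes). KO lay above WT without overlap for 2 of the 4 in PBS tumours (4.9% of all genes) and for 2 of the 4 in DX tumours (15.4% of all genes). Because the genes were chosen with such results known, nothing further is read from these counts.

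Across the 11 arrays, which share groups, BeadChips and normalization, the correlations between the genes were descriptive only. Arg1 and Arg2 correlated at 0.75 (Spearman 0.86), and at 0.31 once group means were removed. Arg1 and Nos2 correlated at 0.62, and Arg2 and Nos2 at 0.41. Within groups Arg2 and Nos2 ran in opposite directions (-0.74). Nos2 and Ass1 correlated at 0.08.

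The genes whose values followed each arginine gene most closely were ranked by Pearson correlation over the same 11 arrays among the other 10622 genes. For Arg2 the nearest were Rab44 (0.92), Lcn2 (0.91), Il1a (0.89), S100a8 (0.89) and Nabp1 (0.88). Lcn2 encodes the iron-siderophore binding protein lipocalin 2, and S100a8 a calcium-binding protein abundant in neutrophils. With group means removed, Arg2 correlated with Lcn2 at 0.54 and with S100a8 at 0.15. For Arg1 they were F10 (0.96), Arhgap17 (0.94), Bmp1 (0.93), Il1a (0.92) and Socs3 (0.92), where F10 encodes coagulation factor X, Il1a the cytokine IL-1 alpha and Socs3 a feedback inhibitor of cytokine signalling. For Nos2 they were Gtf2e2 (0.96), Pakap (0.92), Dpp7 (0.88), Hilpda (0.88) and Tlr4 (0.87), the last encoding the receptor for bacterial lipopolysaccharide. For Ass1 they were Ear3 (0.90), Dleu2 (0.87), Dock4 (0.86), Pecam1 (0.86) and Rasgrp1 (0.86), with Pecam1 an endothelial adhesion molecule. Leaving out the 2 arrays farthest from the median lowered most of these, for example to 0.91 for F10, 0.84 for Rab44 and 0.69 for Pecam1.

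Elsewhere in the arginine pathway no gene passed the test. A further 7 lists held 68 genes of the urea cycle, cationic amino acid transport, polyamines, proline and glutamate, nitric oxide synthesis, creatine and arginine methylation, of which 45 were measured. In limma none of the 45 rose or fell past an adjusted p of 0.05 in any of the 5 comparisons. At an unadjusted p under 0.05 there were 2 of 45 for DX in KO hosts, against 569 of all 10623 genes, and 8 of 45 for DX in WT hosts, against 1245 of all 10623 genes. Their median difference between DX and PBS was -0.09 in KO hosts and -0.11 in WT hosts, against -0.0063 and -0.03 over all genes.

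The pathway gene with the smallest p in WT hosts was Gch1, which encodes GTP cyclohydrolase 1, the first enzyme in making the tetrahydrobiopterin that nitric oxide synthases require. It read 10.20 and 10.20 in KO DX tumours, against 9.52, 9.72 and 9.81 in KO PBS tumours. It read 10.68, 10.31 and 10.95 in WT DX tumours, against 9.93, 9.94 and 9.28 in WT PBS tumours. DX and PBS arrays did not overlap in either host, but the differences of 0.52 (limma adjusted p = 0.919) in KO hosts and 0.93 (adjusted p = 0.0813) in WT hosts did not pass. Pts, the next enzyme of that route, differed by 0.19 in KO hosts and 0.31 in WT hosts. Ddah2, which clears the synthase inhibitor dimethylarginine, differed by 0.37 in KO hosts and 0.0029 in WT hosts.

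Among polyamine genes, Smox, which encodes spermine oxidase, read 11.19 and 10.70 in KO DX tumours, against 10.29, 10.55 and 10.56 in KO PBS tumours. It read 10.94, 11.17 and 11.37 in WT DX tumours, against 10.91, 10.06 and 10.09 in WT PBS tumours. Neither the 0.48 in KO hosts (limma adjusted p = 0.958) nor the 0.80 in WT hosts (adjusted p = 0.202) passed. Odc1, which encodes the ornithine decarboxylase that turns the ornithine made by arginase into putrescine, was not among the genes the naming rule selected and was added after its values were seen. It differed by -0.05 in KO hosts and -0.20 in WT hosts. Srm (spermidine synthase) differed by -0.26 in KO hosts and -0.41 in WT hosts, and Atp13a2, a lysosomal polyamine exporter, by -0.43 in KO hosts and 0.08 in WT hosts.

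Transporters and neighbouring enzymes gave values of both signs. Slc7a7, a subunit of a cationic amino acid exporter, differed by -0.10 in KO hosts and 0.66 in WT hosts (limma adjusted p = 0.208 in WT). Slc7a3, a cationic amino acid importer, differed by -0.23 in KO hosts and -0.75 in WT hosts (adjusted p = 0.242 in WT). Slc3a2, which encodes the partner chain of Slc7a7, differed by -0.31 in KO hosts and -0.16 in WT hosts, and Slc38a9, a lysosomal arginine sensor, by 0.32 in KO hosts and -0.09 in WT hosts. Asl, which completes the resynthesis that Ass1 begins, differed by -0.26 in KO hosts and -0.17 in WT hosts. Slc25a15, the mitochondrial ornithine carrier, differed by -0.41 in KO hosts and -0.19 in WT hosts. Aldh4a1, of proline breakdown, differed by -0.11 in KO hosts and 0.47 in WT hosts (adjusted p = 0.208 in WT). Aldh18a1, of proline synthesis, differed by -0.30 in KO hosts and -0.38 in WT hosts, and Prodh, of proline breakdown, by -0.31 in KO hosts and -0.35 in WT hosts.

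All 7 measured arginine methylation genes had negative differences in WT hosts, yet none passed. Their median was -0.22, against -0.03 over all genes, and the share of all genes below 0 was not counted. Carm1 differed by -0.49 in KO hosts and -0.48 in WT hosts, Prmt7 by -0.07 and -0.38, and Prmt6 by -0.36 and -0.24, in the same order of hosts. All 3 encode protein arginine methyltransferases. Of the creatine genes, Slc6a8 (the creatine transporter) differed by 0.26 in KO hosts and -0.13 in WT hosts, Gamt by -0.08 and -0.13, and Ckb by -0.13 and -0.03.

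**Figure D3:**
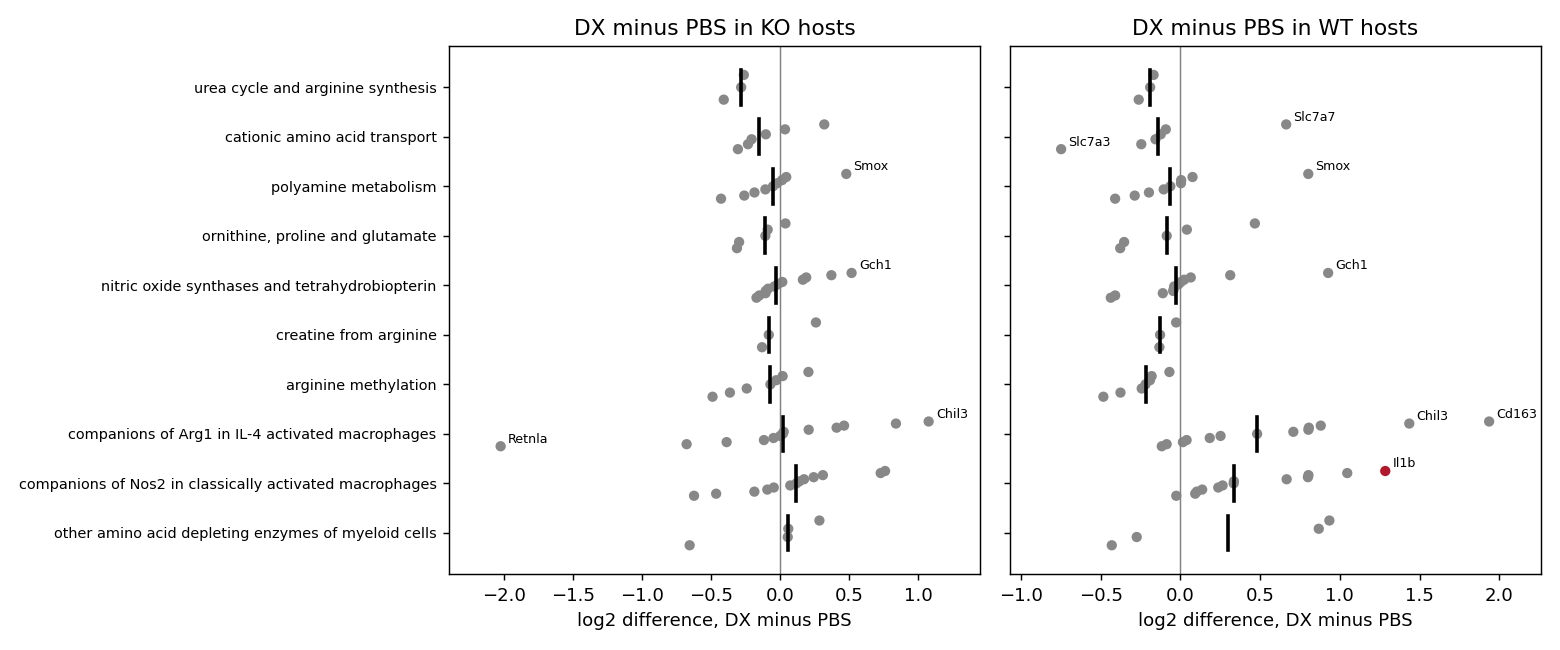
Log2 difference between DX and PBS tumours (horizontal axes, with different ranges) for each measured gene of the 7 arginine pathway lists, of the 2 lists of macrophage activation genes and of other amino acid depleting enzymes, in KO hosts (left) and WT hosts (right). Black lines are list medians, red marks an adjusted p under 0.05, and Il1b in WT hosts (1.28) is the only red point.

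Genes that are known to accompany Nos2 in classically activated macrophages included 1 that rose. Il1b, which encodes the cytokine IL-1 beta, read 11.82 and 11.50 in KO DX tumours, against 11.26, 11.69 and 11.62 in KO PBS tumours. It read 11.71, 11.37 and 12.31 in WT DX tumours, against 10.67, 10.43 and 10.43 in WT PBS tumours. It rose by 1.28 with DX in WT hosts (SE 0.22, limma adjusted p = 0.0319) and all 3 DX arrays lay above all 3 PBS arrays. In KO hosts the difference was 0.14 (adjusted p = 0.986), and the KO response minus the WT response was -1.15 (adjusted p = 0.713). In PBS tumours KO exceeded WT by 1.01 (adjusted p = 0.396). Of the 17 listed genes 13 were measured, and the other 12 did not pass in WT hosts, among them Il6 at 1.05 (adjusted p = 0.173) and the transcription factor gene Irf5 at 0.67 (adjusted p = 0.0972). Il6 was detected on 6 of the 11 arrays, and in PBS tumours on WT PBS 2 alone. The Il6 difference was therefore taken against values near the floor. None of the 13 passed in limma in KO hosts, with 2 at an unadjusted p under 0.05, and Ifngr1, which encodes an interferon gamma receptor chain, was at -0.46 there and at 0.10 in WT hosts. The list's median was 0.12 in KO hosts and 0.33 in WT hosts. The call of Il1b was lost without WT DX 1, WT DX 3, WT PBS 2, WT PBS 3 or KO PBS 3, each left out alone, with differences of 1.03 to 1.33. It was also lost with median scaling (1.37), without BeadChip 2 (1.36) and in a fit of only the groups compared (1.28).

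All 13 genes listed as companions of Arg1 in IL-4 activated macrophages were measured, and none passed in limma. At an unadjusted p under 0.05 there was 1 of 13 in KO hosts and 3 of 13 in WT hosts, where the counts over all 10623 genes were 569 and 1245. The list's median was 0.02 in KO hosts and 0.48 in WT hosts. Chil3, which encodes a chitinase-like protein, read 10.14 and 9.29 in KO DX tumours, against 8.83, 8.78 and 8.31 in KO PBS tumours. It read 9.86, 9.04 and 10.42 in WT DX tumours, against 8.23, 8.33 and 8.46 in WT PBS tumours. DX and PBS arrays did not overlap in either host, with differences of 1.08 in KO hosts (adjusted p = 0.718) and 1.44 in WT hosts (adjusted p = 0.0783). Cd163, a haemoglobin scavenger receptor gene, differed by 0.84 in KO hosts and 1.94 in WT hosts with overlap in both. Retnla differed by -2.02 in KO hosts, where it read 6.20 and 5.99 with DX against 8.11, 7.51 and 8.74 with PBS (adjusted p = 0.957), and by -0.12 in WT hosts. In KO hosts 8 of the 13 differences were above 0 and in WT hosts 11 of the 13. The median over all genes was -0.0063 in KO hosts and -0.03 in WT hosts. The share of all genes above 0 was not counted, so nothing is read from these signs.

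A list named for other amino acid depleting enzymes of myeloid cells held 8 genes. Of these, 4 were measured and none passed in limma, nor at an unadjusted p under 0.05. Il4i1, an amino acid oxidase, differed by 0.05 in KO hosts and 0.87 in WT hosts, and Ido1, which degrades tryptophan, by 0.28 and 0.93. Cth, also on this list, is an enzyme of cysteine synthesis rather than of depletion. It differed by -0.66 in KO hosts and -0.27 in WT hosts.

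Because whole tumours were measured, more cells of a type and more RNA per cell cannot be told apart. Neutrophil markers were therefore set beside the arginine genes, as mean log2 value of a list minus its average over arrays. Of 13 listed neutrophil genes, 7 were measured, and Ly6g, Mmp8, Ngp, Camp, Elane and Mpo had no named probe. Their mean lay at 0.41 and 1.10 in KO DX, -0.26 to -0.0069 in KO PBS, 0.29 to 0.93 in WT DX and -1.05 to -0.76 in WT PBS tumours. The summed linear level was 4320 to 5785 in KO DX, 3228 to 3531 in KO PBS, 4793 to 5805 in WT DX and 1741 to 2788 in WT PBS tumours. S100a8 and S100a9 were detected on all 11 arrays, whereas Cxcr2 was detected on 3 and Ltf on 5. In WT hosts, where 0.621% of all genes passed, 2 of the 7 rose with DX. These were S100a8 by 2.72 (limma adjusted p = 0.00064) and S100a9 by 3.17 (adjusted p = 0.0004). The other 5 did not pass, with Mmp9 at 0.20, Ltf at 0.21, Csf3r at 0.84, Cxcr2 at 1.07 and Retnlg at 2.18. In KO hosts 6 of the 7 differences were above 0 and Mmp9 was at -0.43. S100a8 differed by 1.19 in KO hosts (adjusted p = 0.433), and by 1.79 for KO against WT in PBS tumours (adjusted p = 0.0604).

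The neutrophil list and Arg2 were both lowest in WT PBS tumours. So was the monocyte list, at -0.59 to -0.38 there against -0.16 or more in the other groups. Over the 11 arrays Arg2 and the neutrophil mean correlated at 0.88 (Spearman 0.80), at 0.56 within groups and at 0.80 without the 2 farthest arrays. For Arg1 the values were 0.87 (Spearman 0.75), 0.89 within groups and 0.78 without the 2 farthest arrays. For Nos2 the correlation was 0.62 over all arrays and -0.0086 within groups. The monocyte list correlated with Arg2 at 0.72 (0.36 within groups, 0.81 without its 2 farthest arrays) and with Arg1 at 0.76 (0.82 within groups, 0.78 without its 2 farthest arrays). Within groups Arg2 correlated with the keratinocyte (0.62) and macrophage (0.61) lists at least as closely as with the neutrophil list. With the endothelial, T cell, fibroblast, skeletal muscle and red cell lists Arg2 ran from -0.37 to 0.34. Within groups Arg1 also correlated with the keratinocyte (0.80), endothelial (0.80) and T cell (0.70) lists. With the macrophage, skeletal muscle, fibroblast and red cell lists it ran from -0.31 to 0.51. The part of any of these lists in the arginase differences was not tested.

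Other cell type markers moved with DX as well. Of 4 measured monocyte genes 3 rose in WT hosts, where 0.621% of all genes passed. These were Ccr2, the receptor for CCL2, at 1.10 (limma adjusted p = 0.0301), Fcgr1 at 0.93 (adjusted p = 0.0489) and Plac8 at 0.88 (adjusted p = 0.0325). The list's summed level was 13059 to 13111 in KO DX, 9113 to 12187 in KO PBS, 14598 to 16749 in WT DX and 7229 to 10501 in WT PBS tumours. Among 8 measured macrophage genes none passed in limma in either host, with 3 at an unadjusted p under 0.05 in KO hosts and 1 in WT hosts, and their median difference was -0.28 in KO hosts and 0.15 in WT hosts. Of 13 skeletal muscle genes 4 rose with DX in WT hosts, Mylpf, Myl1, Tnni2 and Tnnt3, by 1.31 to 1.83 (limma adjusted p from 0.0264 to 0.0465). The list's summed level was 4338 to 6822 in KO DX, 5927 to 6505 in KO PBS, 13680 to 26678 in WT DX and 6013 to 9851 in WT PBS tumours. Among 4 measured red cell genes, 2 haemoglobin genes fell in WT hosts, with Hbb-bs at -2.13 and Hbb-bt at -2.28. The calls of Ccr2, Hbb-bs and Hbb-bt were lost when 1 of several arrays was left out, WT DX 1, WT DX 3 and WT PBS 3 among them. All 3 were also lost in a fit of only the groups compared, and that of Ccr2 with median scaling (1.05) and with the BeadChip as a block (1.26). The calls of Fcgr1, Plac8 and the 4 muscle genes were not followed across these settings. No hepatocyte marker had a named probe, so liver RNA, a rich source of Arg1, was not checked.

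Keratinocytes are another known source of Arg1, and WT DX 3, the array with the highest Arg1 value, also had the highest mean of 5 measured keratinocyte genes, at 1.40. Of 10 listed keratinocyte genes, Krt5, Krt1, Sfn, Dsp and Flg had no named probe. Among those measured, Krt15 was detected on 6 arrays and Lor on 3, so both lay near the floor on the rest. That list ran from -0.08 to 0.19 in KO DX, -0.44 to 0.28 in KO PBS, -0.13 to 1.40 in WT DX and -0.56 to -0.02 in WT PBS tumours. Its correlation with Arg1 was 0.74 over all 11 arrays and 0.80 within groups. It was 0.43 without WT DX 3 and WT PBS 3, so it rested in part on those arrays. Ass1 correlated at 0.85 with the endothelial list, of which all 8 genes were measured, and at 0.53 without its 2 farthest arrays. The endothelial list holds Pecam1, which was among the 5 genes nearest to Ass1. The correlation of Ass1 with the macrophage list was 0.78. Within groups Ass1 correlated with the skeletal muscle (0.85), endothelial (0.84), macrophage (0.78), monocyte (0.78) and T cell (0.75) lists. It was -0.70 with the red cell list and ran from 0.32 to 0.66 with the keratinocyte, neutrophil and fibroblast lists. The part of these lists in the values of Arg1 and Ass1 was not tested.

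**Figure D4:**
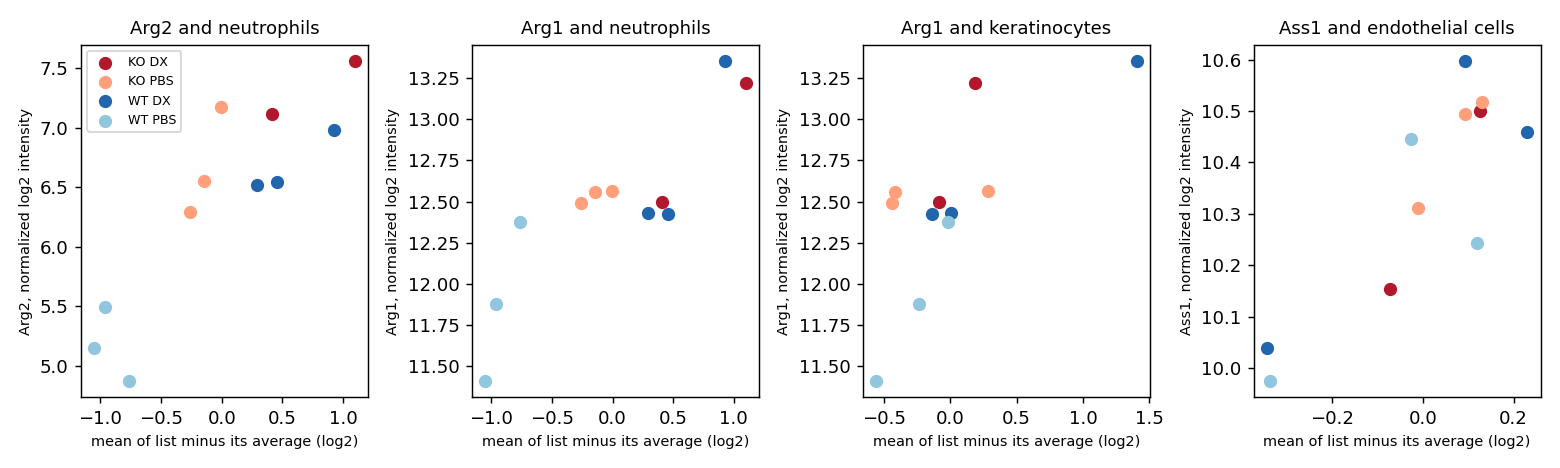
Normalized log2 intensity of Arg2, Arg1 or Ass1 (vertical axes) against the mean of a cell type marker list minus its average over arrays (horizontal axes, log2) on the 11 arrays, coloured by group. For Arg2 the 3 WT PBS arrays lie lowest on both axes; 1 WT DX array, at 1.40 on the keratinocyte axis, stands apart.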

How the data were processed

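Per the file headers, the deposited non-normalized table pairs a linear intensity with a detection p-value for each of 45281 probes on 11 arrays. The authors also deposited their own log2 values for 19215 probes; the submitters' processing notes name Partek and give no steps. In that table the WT DX 2 and WT PBS 2 columns equal the mean of the other 2 columns of their group within 0.0001, so it served only as an alternative. WT DX 2 was the only array on BeadChip 3, and WT PBS 2 shared BeadChip 4 with only the KO DX arrays. With the BeadChip as a block, these 2 arrays therefore have no residual. Whether the authors' table already held such an adjustment was not tested, so it is not a separate check on the block.

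The intensities were normalized with neqc in limma 3.58.1 (R 4.3.3), which infers the background from the detection p-values and quantile normalizes on the log2 scale, here with an offset of 16. Probes detected at p under 0.05 on at least 2 arrays were kept. Of the probes of the authors' table, 16496 carried 1 symbol, 9 several and 2710 none, and 16479 matched a current symbol. The brightest kept probe stood for its gene, which left 10623 genes. A single model fitted the 4 group means (7 residual and 4.04 prior degrees of freedom), and p-values were Benjamini-Hochberg adjusted over all genes within each comparison. Genes were said to rise or fall only past an adjusted p of 0.05. Differences are DX minus PBS or KO minus WT. Values of Arg1, Arg2, Nos2 and Ass1 are descriptions without a test, and a count of them past a threshold only describes a fit, since these genes and all gene lists were chosen with earlier results of these data known.

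Named genes were these 4, every listed gene past the threshold, the 2 genes of each pathway list with the smallest p in each DX comparison, and the 5 genes most correlated with each of the 4. Values of the other measured neutrophil list genes were added after they were seen. The BeadChip was read from the array identifiers. Only 4 of the 15 pairs of equally numbered arrays had deviations correlated above 0.1 (range -0.29 to 0.30), so the replicate numbers were not taken as pairs. Alternatives replaced the background correction, the scaling (by medians), the source (the authors' table), the filter (absent, or stricter), the probe rule (a mean), the model (BeadChip or replicate number as a block, trend with robust eBayes, only the groups compared) or the arrays (each left out in turn). After the data were seen, 3 more were chosen. The first left WT DX 2 and WT PBS 2, called the averaged columns, out of the authors' table. The others used the arrays without BeadChip 2 and the arrays without the Eif2s3y pair. The pipeline was tested on simulated data.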

Additional observations from a re-analysis of the deposited data

Results flagged for a closer look

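Aldh4a1, a mitochondrial enzyme of proline breakdown, stood out because its KO and WT values changed places between treatments. In DX tumours both KO arrays lay below all 3 WT arrays, as for 11.7% of all genes. In PBS tumours all 3 KO arrays lay above all 3 WT arrays, as for 4.9% of all genes. The gaps were narrow, with 8.89 on KO DX 1 against 8.97 on WT DX 2. In PBS tumours they were 8.86 on KO PBS 3 against 8.82 on WT PBS 1. DX minus PBS was -0.11 in KO hosts and 0.47 in WT hosts. The difference of the responses was -0.57, with a limma adjusted p of 0.934, so it did not pass.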

How the results depend on the processing

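Over 24 other settings, 454 of 476 values of Arg1, Arg2, Nos2 and Ass1 kept their sign. For DX in WT hosts all 4 genes did so in every setting, and the sign turned only in comparisons that involve KO DX tumours. Some settings could not change a difference, and their values are among the 454. Examples are leaving out an array of a group not compared, trend with robust eBayes and a fit of only the groups compared. The count therefore overstates how far the signs were put to the test. S100a8 and S100a9 passed the threshold in all 24 settings for DX in WT hosts. With 2 or 3 arrays a group, and Arg2 and Nos2 close to background on some of them, small differences could not be resolved. In the authors' deposited table WT DX 2 and WT PBS 2 equal the mean of the other 2 columns of their group. Its median residual SD was 0.0724 against 0.224 here, and 5450 of 10623 genes passed for DX in WT hosts. The same 2 arrays have no residual with the BeadChip as a block, which left 3 residual degrees of freedom against 7 without it. Whether that table already held such an adjustment was not tested, so no count from it is read as a number of changed genes. Arg1, Arg2, Nos2 and Ass1 are given below as values, and no call of them is read in any setting.

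For DX against PBS in WT hosts the authors' table gave 1.32 for Arg1, 0.73 for Arg2, 0.093 for Nos2 and 0.46 for Ass1. The BeadChip block gave 1.34, 2.06, 0.29 and 0.50 in that order. No background correction gave 0.50 for Arg2 and 0.29 for Nos2. Arg2 was 1.39 with median scaling, 1.57 without the Eif2s3y arrays, 1.50 with only the groups compared and 1.35 to 1.66 when single arrays were left out. Without BeadChip 2, Nos2 was 1.14. For DX against PBS in KO hosts Arg2 was 0.32 without background correction, 0.094 in the authors' table and -0.0038 with the BeadChip block. Nos2 was 0.38 and 1.17, and Ass1 -0.43 and -0.48, in the authors' table and with the block.

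For the KO response minus the WT response the authors' table and the block gave -1.15 and -1.18 for Arg1, -0.64 and -2.07 for Arg2, 0.29 and 0.88 for Nos2, and -0.89 and -0.98 for Ass1. Arg2 was -0.19 without background correction and -0.44 without BeadChip 2, where Nos2 was -1.11. For KO against WT in PBS tumours the authors' table gave 0.80 for Arg1, 0.64 for Arg2 and 0.33 for Ass1. Arg2 was 0.51 without background correction and 1.09 without BeadChip 2, where Nos2 was 1.34. For KO against WT in DX tumours the authors' table and the block gave -0.35 and -0.36 for Arg1, -0.0020 and -0.23 for Arg2, 0.38 and 1.07 for Nos2, and -0.56 and -0.62 for Ass1, and median scaling gave 0.20 for Ass1. The authors' table without its averaged columns gave these values again to 2 decimals. That was fixed in advance, since each dropped column equals the mean of the 2 columns kept in its group.

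Pathway genes past the threshold, 0 as reported, numbered 26 for DX in WT hosts, 16 for DX in KO hosts, 22 for the difference of the responses, 10 for KO against WT in PBS and 24 in DX tumours in the authors' table. Without its averaged columns they were 12, 12, 14, 0 and 16. For DX in WT hosts there was 1 without background correction, 2 with the mean of a gene's probes, 1 with trend and robust eBayes, and 0 to 1 when single arrays were left out. Genes passing for DX in WT hosts, 66 as reported, numbered 97 without background correction, 26 with median scaling, 116 with trend and robust eBayes, 69 with the BeadChip block, 41 without BeadChip 2 and 10 to 233 without single arrays. With the replicate block they numbered 63, and Arg2 was 0.69 in KO hosts and 1.50 in WT hosts.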
